A study of Homo sapiens with 6 samples.

Results

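Long noncoding and antisense RNAs with a name of their own were followed in RKO cells, an established human colorectal carcinoma line, after 48 h in fasting medium or control medium. Members were the genes of the deposited table named by a LINC number, as a microRNA host gene (MIR...HG), with an ending for antisense (AS), divergent (DT), intronic or overlapping transcripts, or as MALAT1 or NEAT1. The antisense RNA of SLC7A11 was left out by the same rule. There were 110 members among 3511 listed genes, of which 55 were antisense, 24 divergent, 22 LINC-numbered and 7 microRNA host genes, besides MALAT1 and NEAT1. A single member carried its name in the deposited table, and 109 were named from their Ensembl identifiers through a table of gene names, because 435 listed genes have no name in the file.

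The fasting group held 3 libraries of wild-type RKO cells in low-glucose medium with 1% serum and 1 g/L glucose. The control group held 3 libraries of the same cells in medium with 10% serum and 4.5 g/L glucose. Drug treatments that the series mentions besides were not analysed here. The groups rest on each sample's treatment label, and serum and glucose were changed together, so their parts cannot be told apart. Nothing in the labels says whether the libraries of a group came from separate cultures, so p-values reflect spread among samples that may be no more than technical.

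Long noncoding RNAs are transcripts that are not translated into known proteins. Antisense RNAs are made from the strand opposite a gene, and divergent transcripts start close to a gene's promoter and run away from it. A microRNA host gene is a long transcript from which the nuclear enzyme Drosha cuts hairpins, and Dicer then trims these to mature microRNAs that pair with messenger RNAs through their seed. MALAT1 accumulates in nuclear speckles, and NEAT1 is the scaffold of nuclear paraspeckles.

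The mature microRNAs of the host genes are shown because they are the products by which these genes are known, although the deposited values measure the host transcripts and no microRNA. They are written 5′ to 3′ from RefSeq (GRCh38.p14), and capitals mark the seed, bases 2 to 8. The first 11 belong to host genes that were higher in fasting medium.
miR-22-3p, MIR22HG, chr17:1713914-1713935, minus strand: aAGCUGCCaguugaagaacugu
let-7a-5p, MIRLET7A1HG, chr9:94175962-94175983, plus strand: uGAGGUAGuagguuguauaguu
let-7f-5p, MIRLET7A1HG, chr9:94176353-94176374, plus strand: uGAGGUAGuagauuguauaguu
let-7d-5p, MIRLET7A1HG, chr9:94178841-94178862, plus strand: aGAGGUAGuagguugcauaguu
miR-221-3p, MIR222HG, chrX:45746180-45746202, minus strand: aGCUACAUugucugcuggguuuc
miR-222-3p, MIR222HG, chrX:45747036-45747056, minus strand: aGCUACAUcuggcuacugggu
miR-100-5p, MIR100HG, chr11:122152275-122152296, minus strand: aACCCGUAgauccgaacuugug
miR-125b-5p, MIR100HG, chr11:122099809-122099830, minus strand: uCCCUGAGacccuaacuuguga
miR-23a-3p, MIR23AHG, chr19:13836595-13836615, minus strand: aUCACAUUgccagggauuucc
miR-27a-3p, MIR23AHG, chr19:13836447-13836467, minus strand: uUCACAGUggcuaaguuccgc
miR-24-3p, MIR23AHG, chr19:13836289-13836310, minus strand: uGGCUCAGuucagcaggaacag

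The other host genes, MIR600HG and MIR924HG, were lower in fasting medium.
miR-600, MIR600HG, chr9:123111561-123111583, minus strand: aCUUACAGacaagagccuugcuc
miR-924, MIR924HG, chr18:39622153-39622172, minus strand: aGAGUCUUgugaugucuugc

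The microRNAs let-7a-5p, let-7f-5p and let-7d-5p share the seed GAGGUAG. A further copy of let-7a-5p lies in MIR100HG, so both MIRLET7A1HG and MIR100HG hold that seed. In MIR222HG, miR-221-3p and miR-222-3p share the seed GCUACAU. In the RefSeq annotation the MIRLET7A1HG gene covers 3 let-7 genes, while the GENCODE v29 model of the same identifier covers 0 of them. The other host genes cover their microRNAs in both annotations.

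The table holds only genes that the authors had called, 11.8% of the 29845 that they tested, so a gene outside it is described as not listed and has no value here. Values are normalized counts, reads divided by a size factor for each library. Reads in the listed genes numbered 4187326, 5071791 and 4389842 in the fasting libraries, against 4017618, 5602177 and 5513396 in the control libraries. Of these, members held 11654, 14441 and 11512 reads in fasting medium and 9276, 12990 and 12450 reads in control medium. Per 10000 listed reads this came to 27.8, 28.5 and 26.2 in fasting libraries, all above the 23.1, 23.2 and 22.6 of control libraries. Fasting replicate 3 stood apart from the other fasting libraries, with a chi-square per gene of 55.4 and 55.1 against them, where sampling noise alone gives about 1. The other fasting pair had 1.85, and control pairs had 2.10 to 6.44. Against the other fasting libraries, fasting replicate 3 was higher by a median of 0.24 log2 units in the 30 shortest of the 89 members with at least 20 normalized counts, and the median was -0.06 in the 30 longest. Over all listed genes at that level these medians were 0.36 in the shortest 1100 and -0.36 in the longest 1100. The Spearman correlation of the difference with transcript length was -0.206 across the 89 members and -0.629 across 3300 listed genes. Of 8 epithelial markers KRT18 alone was listed, and none of 13 fibroblast, leukocyte or endothelial markers was, so the cell type could not be checked further. A list of genes induced by stress or by handling of RNA and cells was listed for 9 of its 11 genes. All 9 were higher in fasting medium, with a median log2 fold change of 2.84 and a summed level of 43386 to 51258 in fasting libraries and 6661 to 7115 in control libraries. Its part in the results below was not tested.

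Most members were higher in fasting medium. Of 110 members, 106 passed limma's test (Benjamini-Hochberg adjusted p under 0.05), against 94.3% of all listed genes. Members that rose numbered 87, and 49.7% of all listed genes rose. A further 19 members fell, and 44.6% of all listed genes fell. At least 2-fold rises were seen in 72 members, against 26.6% of all listed genes, and at least 2-fold falls in 13, against 19.8% of all listed genes. The groups did not overlap in any of the 110 members, which holds for 100% of the listed genes. The median log2 fold change (fasting minus control, of log2 of the normalized count plus 1) was 1.25 for the members, 0.53 for all listed genes and -0.59 for listed protein-coding genes. The member LINC00672 is protein-coding by its GENCODE v29 type and so counts in that set too. Only called genes are listed, and 1764 of them had a positive and 1747 a negative log2 fold change. The medians of all listed and of protein-coding genes thus lie near the edge between rises and falls and are no typical change. With a mean of at least 20 required in a group, the median of all listed genes was -0.56.

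The balance of rises and falls moved with the scaling. With total-read scaling, in which listed reads summed to the same total in each library, the scale moved by -0.48 log2 units, and by less for members with few counts because of the added 1, and 47 members rose and 20 fell. Of the members called under that scaling 70.1% rose, against 33.5% of all called genes. With RLE scaling, which moved the scale by 0.20, again by less for low members, 87 rose and 12 fell, so that 87.9% of the called members rose, against 60% of all called genes. With the authors' size factors the shares were 82.1% of the called members and 52.7% of all called genes. No member changed sign under any of the 20 alternatives. Since the groups overlapped in no member, only the alternatives with another scaling could have reversed a sign. Of the 106 called members 35 passed in every alternative. The 21 members with a mean under 20 in both groups could not, because a filter at that mean left them untested.

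**Figure D1:**
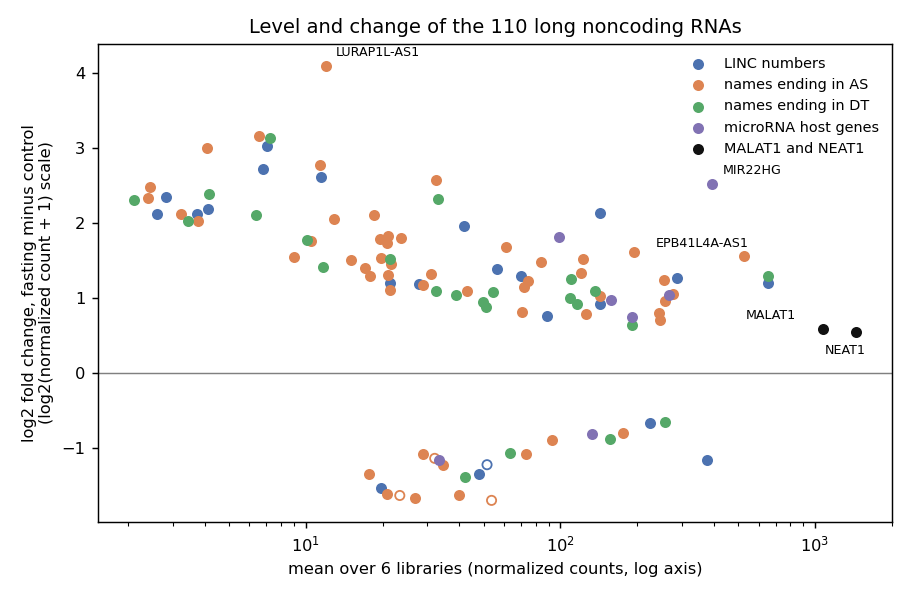
Each point is a member, with its mean over the 6 libraries in normalized counts on a log axis and its log2 fold change, fasting minus control, on the vertical axis. Open circles are the 4 members that did not pass the test. The 21 weakest members, with under 20 in their higher group, all lie above 0.

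With the authors' size factors every kind of member had more rises than falls, where 49.7% of all listed genes rose and 44.6% fell. Among LINC-numbered RNAs 17 rose, 4 fell and 1 did not pass (median log2 fold change 1.28). Antisense RNAs rose in 43 and fell in 9 cases, with 3 not past the threshold (median 1.33). Divergent transcripts rose in 20 and fell in 4 cases (median 1.101). Host genes rose in 5 and fell in 2 cases. With total-read scaling the risers MIR222HG, MIR100HG and MIR23AHG lost their calls, as did MALAT1 and NEAT1, while both falling host genes kept theirs. Members were low in abundance, with a median of 39.5 normalized counts over all libraries, against 450 for all listed genes. Among 21 members with fewer than 20 normalized counts in their higher group, all rose, and of the 180 listed genes at that level 142 rose and 27 fell. Among 40 members with at least 100 normalized counts 33 rose and 7 fell, while of 2897 listed genes at that level 1378 rose and 1364 fell. The lean upward was thus present among the abundant members, where all listed genes were nearly balanced.

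Among host genes MIR22HG (ENSG00000186594), the transcript that holds miR-22, changed most. It had 621, 612 and 788 normalized counts in fasting libraries, against 125, 113 and 108 in control libraries. The lowest fasting library lay far above every control library. The mean was 673.5 ± 99.2 in fasting medium and 115.5 ± 8.76 in control medium (SD, n = 3 each). The log2 fold change was 2.53 ± 0.13 (SE), a 5.76-fold rise with adjusted p = 3.22e-05 by limma, and the call held in every alternative.

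MIRLET7A1HG (ENSG00000269929), which RefSeq draws across the let-7a-1, let-7f-1 and let-7d hairpins, had 140.9, 150.6 and 173.3 normalized counts in fasting libraries, against 38.5, 46.9 and 43.6 in control libraries. It rose 3.54-fold (log2 fold change 1.83 ± 0.15, SE, adjusted p = 1.94e-04), also in every alternative. MIR222HG (ENSG00000270069), the host of the miR-221 and miR-222 pair, had 297, 342 and 447 normalized counts in fasting libraries and 184, 179.7 and 155.5 in control libraries. Fasting replicate 3 was the highest of its group, and the rise was 2.06-fold (adjusted p = 3.94e-03). MIR100HG (ENSG00000255248), which carries miR-100, let-7a-2 and miR-125b-1, had 211, 215.5 and 203.5 normalized counts in fasting libraries, against 96.7, 111 and 112 in control libraries. The fasting libraries lay close together, and the rise was 1.97-fold (adjusted p = 1.09e-03). MIR23AHG (ENSG00000267519), the host of the miR-23a, miR-27a and miR-24-2 cluster, had 223, 246 and 253 normalized counts in fasting libraries and 141, 140.0 and 144 in control libraries. Its rise was 1.69-fold (adjusted p = 2.34e-03). The calls of MIR222HG, MIR100HG and MIR23AHG were lost with total-read scaling, where the log2 fold changes were 0.57, 0.50 and 0.29.

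MIR600HG (ENSG00000236901), the host of miR-600, moved the other way, with 112, 109.8 and 70.1 normalized counts in fasting libraries, against 171, 169.8 and 163.5 in control libraries. Its log2 fold change was -0.81 ± 0.19 (SE, adjusted p = 0.0284), and -0.60 without fasting replicate 3, the lowest library. The call was lost on leaving out any single control library and with RLE scaling. MIR924HG (ENSG00000267374) had 14.0, 23.0 and 24.8 normalized counts in fasting libraries and 44.4, 46.2 and 47.2 in control libraries. The fall of -1.16 ± 0.24 on the log2 scale (SE, adjusted p = 0.0138) was no longer called when any control library was left out.

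**Figure D2:**
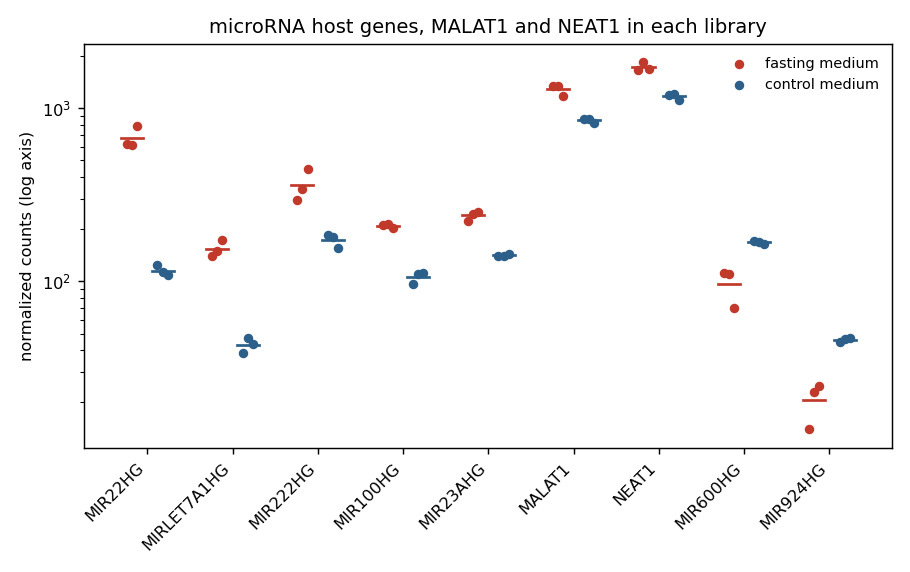
Normalized counts on a log axis of the microRNA host genes, MALAT1 and NEAT1 in each library (points, n = 3 each), with fasting libraries left of control libraries and bars at the group means. The 5 host genes that rose, MALAT1 and NEAT1 show all fasting points above the control points, and MIR600HG and MIR924HG show them below.

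MALAT1 and NEAT1, the most abundant members by counts, rose by less than most others. NEAT1 (ENSG00000245532) had 1659, 1846 and 1686 normalized counts in fasting libraries, against 1200.3, 1213 and 1113 in control libraries. The rise was 1.47-fold (log2 fold change 0.56 ± 0.08, SE, adjusted p = 3.27e-03). MALAT1 (ENSG00000251562) had 1341, 1342 and 1183 normalized counts in fasting libraries and 865, 868.2 and 826 in control libraries. It rose 1.51-fold (log2 fold change 0.59 ± 0.09, SE, adjusted p = 2.83e-03). Both calls were lost with total-read scaling, where the log2 fold changes were 0.08 for NEAT1 and 0.12 for MALAT1. Divided by the length of their longest transcript, the means over all libraries were 63.9 normalized counts per kb for NEAT1 and 123 for MALAT1.

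The other members among the most abundant rose more. ITGB1-DT (ENSG00000229656), divergent from the integrin beta-1 gene, had 839, 833 and 1119 normalized counts in fasting libraries, against 381, 363 and 380.1 in control libraries. It rose 2.46-fold (adjusted p = 5.02e-04). LINC00963 (ENSG00000204054) had 913, 910.05 and 903 normalized counts in fasting libraries and 384, 419.9 and 382 in control libraries. The fasting libraries were nearly equal, and the rise was 2.30-fold (adjusted p = 1.07e-04). EPB41L4A-AS1 (ENSG00000224032) had 611, 629.7 and 1134 normalized counts in fasting libraries, against 250.5, 259 and 259 in control libraries. Fasting replicate 3 was far above the other fasting libraries, and the log2 fold change was 1.56 ± 0.23 (SE, adjusted p = 2.57e-03) with that library and 1.27 without it. Per kb of transcript ITGB1-DT had the highest mean of these abundant members, with 623 normalized counts per kb, then EPB41L4A-AS1 with 176 and LINC00963 with 68.2.

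The largest rise among members that reached a mean of 20 normalized counts was that of LURAP1L-AS1 (ENSG00000235448), antisense to the adaptor gene LURAP1L. It had 34.3, 20.9 and 15.1 normalized counts in fasting libraries, against 0, 0 and 1.45 in control libraries. These were 2 reads in all controls together, so its log2 fold change of 4.10 ± 0.46 (SE, adjusted p = 8.32e-04) rests on few counts. The call held in every alternative, but with a pseudocount of 5 the log2 fold change was 2.33, below the 2.49 of MIR22HG. LINC00664 (ENSG00000268658) had far more reads, with 289, 237 and 176 normalized counts in fasting libraries and 49.3, 54.0 and 50.9 in control libraries. It rose 4.404-fold (adjusted p = 2.78e-04). CD2BP2-DT (ENSG00000260219), divergent from a spliceosome component gene that was not listed, had 55.8, 44.98 and 66.0 normalized counts in fasting libraries, against 7.89, 10.7 and 12.4 in control libraries. Its rise was 5.02-fold (adjusted p = 5.31e-04).

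LINC02709 (ENSG00000245522) had 74.9, 66.9 and 59.1 normalized counts in fasting libraries and 16.8, 20.6 and 12.4 in control libraries, a 3.93-fold rise. RPL26L1-AS1 (ENSG00000204758), antisense to a ribosomal protein-like gene, had 35.5, 30.3 and 34.4 normalized counts in fasting libraries, against 8.88, 7.10 and 10.2 in control libraries. It rose 3.56-fold. LINC00324 (ENSG00000178977) had 16.5, 14.6 and 30.2 normalized counts in fasting libraries and 2.96, 2.84 and 1.45 in control libraries, with fasting replicate 3 the highest. Its rise was 6.12-fold, and like those of LINC02709 and RPL26L1-AS1 it passed in every alternative. UBQLN1-AS1 rose 4.31-fold, with means of 30.7 ± 8.53 in fasting medium and 6.45 ± 2.60 in control medium, and NUP153-AS1 rose 4.18-fold, with means of 21.3 ± 5.31 and 4.44 ± 1.90 (SD, n = 3 each). The protein-coding partners of RPL26L1-AS1, UBQLN1-AS1 and NUP153-AS1 were not listed.

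At the low end, 4 of the 21 members under 20 normalized counts in their higher group had no read in any control library. Of the 180 listed genes at that level 37 had none. NDUFB2-AS1 had 7.62, 3.14 and 13.8 normalized counts in fasting libraries. Against a floor of 3 reads over the control group, which corresponds to a mean of 0.790 normalized counts, it was at least 10.3-fold higher. By the same floor FOSL2-AS1 was at least 6.18-fold, KLHL30-AS1 at least 6.08-fold and HIVEP2-DT at least 5.35-fold higher. The call of KLHL30-AS1 was lost in 7 of 20 alternatives, among them leaving out fasting replicate 2 or any control library. These include the filter at a mean of 20, where KLHL30-AS1 was not tested. The floor covers counting error only, and all 4 had under 20 normalized counts in every fasting library.

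Falls were fewer and smaller. PPP1R15B-AS1 (ENSG00000226330), antisense to the gene of a regulatory subunit of the eIF2alpha phosphatase, had 20.3, 12.6 and 6.88 normalized counts in fasting libraries, against 38.5, 42.6 and 40.7 in control libraries. Its log2 fold change was -1.66 ± 0.34 (SE, adjusted p = 0.0151), and -1.29 without fasting replicate 3, and the call was lost on leaving out any control library. HOXA10-AS (ENSG00000253187), a transcript of the HOXA cluster, had 10.2, 8.37 and 11 normalized counts in fasting libraries and 32.6, 35.5 and 27.6 in control libraries. It fell in every alternative, with a log2 fold change of -1.60 ± 0.21 (SE, adjusted p = 1.56e-03). UBL7-DT (ENSG00000247240) had 21.6, 25.1 and 22.0 normalized counts in fasting libraries, against 67.1, 52.6 and 65.4 in control libraries. The fall, with a log2 fold change of -1.39, also held in every alternative. LINC00659 (ENSG00000228705) had 29.2, 26.2 and 24.8 normalized counts in fasting libraries and 64.1, 71.8 and 71.95 in control libraries, and fell likewise (-1.34, adjusted p = 9.12e-04). SLC5A4-AS1 (ENSG00000242082) fell by 1.07 on the log2 scale, again in every alternative, with means of 18.3 ± 2.87 in fasting medium and 39.2 ± 0.665 in control medium (SD, n = 3 each).

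LINC00342 (ENSG00000232931) was the most abundant member that fell, with 284, 295 and 142 normalized counts in fasting libraries and 548, 521.5 and 464 in control libraries. Its log2 fold change of -1.16 became -0.81 without fasting replicate 3, the lowest library, and the call was lost on leaving out any control library. PRR11-AS1 (ENSG00000265415) had 25.4, 29.3 and 8.25 normalized counts in fasting libraries, against 58.2, 66.1 and 53.1 in control libraries. PRR11-AS1 had a log2 fold change of -1.62 ± 0.42 (SE, adjusted p = 0.0477), and -1.08 without fasting replicate 3, with the call lost in 9 of 20 alternatives. LINC01515 had means of 10.1 ± 5.56 in fasting medium and 29.2 ± 7.23 in control medium (log2 fold change -1.52) and was not called in 7 alternatives. FEZF1-AS1, an RNA described in colorectal tumours, had means of 47.1 ± 11.8 in fasting medium and 98.9 ± 17.3 in control medium (SD, n = 3 each). The log2 fold change of FEZF1-AS1 was -1.07, a call lost with RLE scaling and on leaving out control replicate 2 or 3. EP300-AS1 (-1.34) and ZFHX3-AS1 (-1.22) fell as well, and the call of EP300-AS1 was lost without fasting replicate 2, control replicate 1 or control replicate 3. Members not past the threshold were HOXB-AS3 (-1.69, adjusted p = 0.0665), SH3RF3-AS1 (-1.63, adjusted p = 0.238), LINC01521 (-1.22, adjusted p = 0.123) and FAM13A-AS1 (-1.13, adjusted p = 0.0558). All 4 had their lowest value in fasting replicate 3 and all passed without that library, as did 3509 of the 3511 listed genes.

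**Figure D3:**
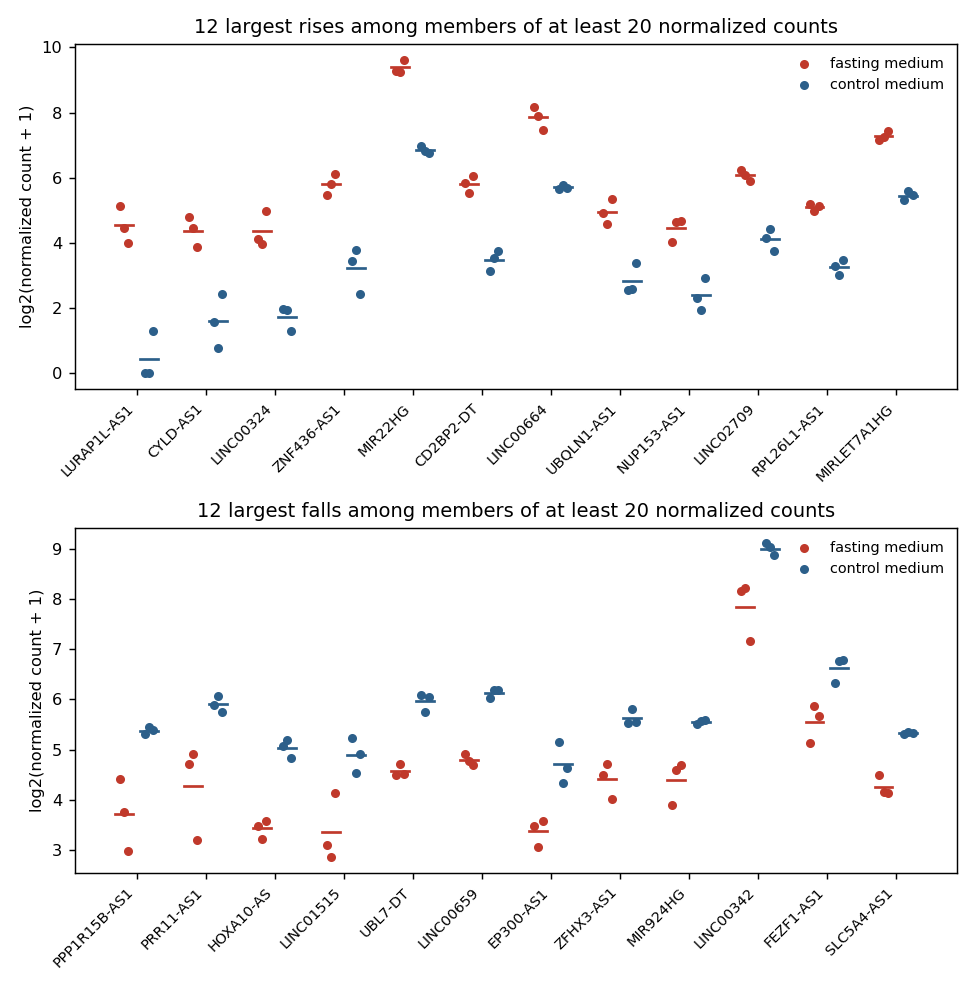
The log2(normalized count + 1) of the 12 largest rises (top) and the 12 largest falls (bottom) among members whose higher group averaged at least 20, in each library (points, n = 3 each), with fasting libraries left of control libraries and bars at the group means. The fasting points of PRR11-AS1 and LINC00342 are spread by a low value in replicate 3, while those of UBL7-DT and LINC00659 lie close together.

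Of 79 antisense and divergent members, 23 had their sense gene in the table, 16 antisense and 7 divergent. For the other 56 no sense gene was listed by name. Among these, no gene named HOXB was found for HOXB-AS3. PYDC2-AS1 lies on the same strand as PYDC2 in GENCODE v29. The antisense and the sense RNA moved in the same direction in 20 of 23 pairs, 17 higher and 3 lower in fasting medium, and in 19 both passed the test. All listed genes had been called by the authors, so each sense gene had to move one way or the other. Since 19 of the 23 antisense or divergent RNAs and 18 of the 23 sense genes were higher in fasting medium, many pairs would share a direction whatever their pairing. That share was not tested. Across the 23 pairs the Spearman correlation of the log2 fold changes was 0.516, given as a description, since both values of a pair come from the same libraries. In 10 pairs exons of the partners overlap on opposite strands in GENCODE v29, and all 10 moved in the same direction. Whether the authors counted by strand is not given in the sources used here. In such pairs reads of the partners may not have been told apart. Of the 13 pairs without overlapping exons, 10 moved in the same direction. Per kb of transcript the sense gene was the higher one in 21 of 23 pairs in fasting medium. At the median the antisense level per kb was 5.08% of the sense level in fasting medium and 6.47% in control medium.

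**Figure D4:**
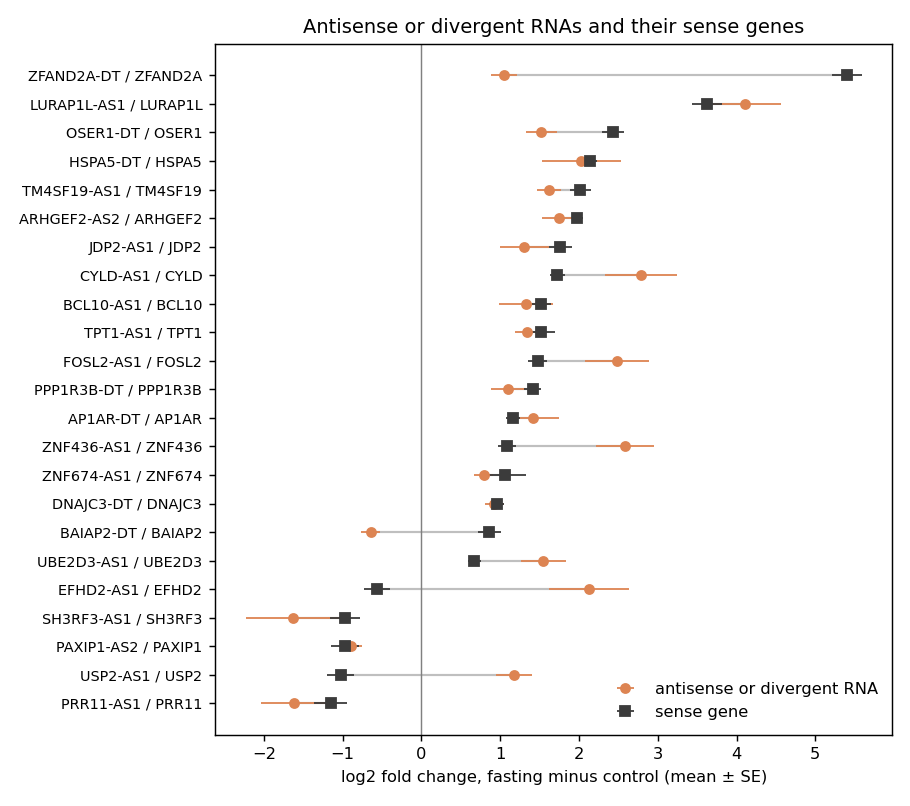
Log2 fold changes, fasting minus control, of 23 antisense or divergent RNAs (circles) and their sense genes (squares), with bars of 1 SE (n = 3 each) and a line joining the partners. Most pairs lie on the same side of 0, and USP2, BAIAP2 and EFHD2 lie across 0 from their partners.

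Pairs that rose together included LURAP1L-AS1, whose sense gene LURAP1L had 141, 132 and 125 normalized counts in fasting libraries, against 11.8, 7.82 and 10.2 in control libraries. LURAP1L rose 12.3-fold (adjusted p = 3.22e-05), and the exons of the partners do not overlap. CYLD-AS1 (ENSG00000261644) had 26.7, 20.9 and 13.8 normalized counts in fasting libraries and 1.97, 0.710 and 4.36 in control libraries. It rose 6.90-fold, and CYLD, a deubiquitinase that restrains NF-kappaB signalling, rose 3.31-fold. Exons of the partners overlap. ZNF436-AS1 (ENSG00000249087) had 43.2, 55.4 and 68.8 normalized counts in fasting libraries, against 9.86, 12.8 and 4.36 in control libraries. Its rise was 6.005-fold, and that of the zinc finger gene ZNF436 was 2.13-fold, again with overlapping exons. TM4SF19-AS1 was about as abundant as its sense gene per kb, at 84.2% of TM4SF19 in fasting medium and 111% in control medium. It rose 3.07-fold, with means of 293 ± 47.5 in fasting medium and 94.1 ± 8.22 in control medium (SD, n = 3 each). TM4SF19 rose 4.05-fold. Exons of the partners overlap here too, so their reads may not have been told apart. ARHGEF2-AS2 rose 3.34-fold and ARHGEF2, which activates the GTPase RhoA, 3.94-fold, without overlapping exons. UBE2D3-AS1 rose 2.92-fold, a call lost without control replicate 3. UBE2D3, a ubiquitin-conjugating enzyme, rose 1.59-fold, a call lost with total-read scaling, and exons of these partners overlap.

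The pairs that fell together were PRR11-AS1 with PRR11, SH3RF3-AS1 with SH3RF3, and PAXIP1-AS2 with PAXIP1. PRR11 had 241, 234 and 146 normalized counts in fasting libraries, against 468, 507 and 383 in control libraries. The log2 fold change of PRR11 was -1.15, and its exons overlap those of PRR11-AS1. SH3RF3, the gene of a ubiquitin ligase, fell by 0.97 on the log2 scale (adjusted p = 0.0114), a call that depended on control replicates 1 and 3, while SH3RF3-AS1 had 16.5, 19.9 and 2.75 normalized counts in fasting libraries and 39.5, 34.8 and 26.9 in control libraries and did not pass. PAXIP1-AS2 fell by 0.89 and PAXIP1, a protein of the DNA damage response, by 0.97 on the log2 scale. Exons of PAXIP1-AS2 and PAXIP1 overlap as well.

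In 3 pairs the partners differed in direction, none of them with overlapping exons. USP2-AS1 (ENSG00000245248) had 36.8, 38.7 and 45.4 normalized counts in fasting libraries, against 13.8, 16.3 and 22.5 in control libraries. Its sense gene USP2, a deubiquitinase, had 19.04, 19.9 and 22.0 normalized counts in fasting libraries and 42.4, 46.2 and 38.5 in control libraries. The antisense RNA rose 2.26-fold (adjusted p = 9.73e-03) and the sense RNA fell, with a log2 fold change of -1.02 (adjusted p = 4.99e-03). The rise of USP2-AS1 did not pass with total-read scaling (0.72) or without control replicate 2. The log2 ratio of antisense to sense was 0.95 ± 0.05 in fasting medium and -1.25 ± 0.44 in control medium (SD, n = 3 each). Per kb this was 298% of the sense level in fasting medium and 62.2% in control medium.

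BAIAP2-DT (ENSG00000226137) went the opposite way, with 221, 203 and 177 normalized counts in fasting libraries, against 289, 316 and 334 in control libraries. BAIAP2, an adaptor between small GTPases and actin, had 632, 681 and 876 normalized counts in fasting libraries and 352, 409 and 437.5 in control libraries. The divergent RNA fell by 0.64 on the log2 scale (adjusted p = 9.74e-03) and BAIAP2 rose 1.81-fold (adjusted p = 5.62e-03). BAIAP2-DT lost its call with RLE scaling and without control replicate 2 or 3, and BAIAP2 lost it with total-read scaling (0.38). EFHD2-AS1 had 7.62, 2.09 and 8.25 normalized counts in fasting libraries and 0, 0.710 and 0.727 in control libraries. It rose (log2 fold change 2.13, adjusted p = 0.0311 by limma), a call lost in 10 of 20 alternatives. These include the filter at a mean of 20, where EFHD2-AS1 was not tested. EFHD2, a calcium-binding protein, had a log2 fold change of -0.56 that did not pass (adjusted p = 0.0933).

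The ratio of antisense to sense RNA separated the groups in 8 of 23 pairs. This was fixed in advance for USP2, BAIAP2 and EFHD2, whose partners moved the other way. The groups overlapped in no listed gene, so such a ratio must separate them. The smallest p that an exact two-sided permutation test can give with 3 libraries each is 0.1, which these 8 pairs reached, and adjusted over 23 pairs it was 0.287. Besides USP2, BAIAP2 and EFHD2, they were ZFAND2A, OSER1, ZNF436, UBE2D3 and FOSL2 with their partners. FOSL2-AS1 had no read in control libraries and EFHD2-AS1 had 2 in all, so their ratios there rest wholly or largely on the added 1. The widest difference was in the ZFAND2A pair. ZFAND2A-DT (ENSG00000229043) had 45.7, 55.4 and 57.8 normalized counts in fasting libraries, against 24.7, 24.9 and 25.4 in control libraries. ZFAND2A, an arsenite-inducible gene whose protein binds the proteasome, had 3034, 3109 and 5004 normalized counts in fasting libraries and 84.8, 86.0 and 82.9 in control libraries. The divergent RNA rose 2.07-fold (adjusted p = 3.93e-03) and ZFAND2A 42.3-fold (adjusted p = 6.90e-06). The call of ZFAND2A-DT was lost with total-read scaling (0.58, adjusted p = 0.0639). Per kb the divergent RNA came to 1.1% of ZFAND2A in fasting medium and 22.9% in control medium, although exons of the partners overlap. OSER1-DT rose 2.88-fold and OSER1, an oxidative stress responsive gene, 5.38-fold.

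The divergent transcripts of DNAJC3 and HSPA5, a pair of endoplasmic reticulum chaperone genes, were set beside their sense genes. By limma, with the added 1, their log2 fold changes were close to those of the sense genes. DNAJC3-DT (ENSG00000247400) had 154, 144 and 159.5 normalized counts in fasting libraries, against 74.9, 81.7 and 82.9 in control libraries. DNAJC3, an HSP40 co-chaperone of the endoplasmic reticulum, had 3331, 3263 and 2774 normalized counts in fasting libraries and 1599.7, 1678 and 1540.1 in control libraries. The log2 fold changes were 0.93 for DNAJC3-DT and 0.95 for DNAJC3, and both calls were lost with total-read scaling. HSPA5-DT had 6.35, 9.41 and 2.75 normalized counts in fasting libraries and 0, 0.710 and 1.45 in control libraries. Its log2 fold change was 2.03 ± 0.50 (SE, adjusted p = 0.0376 by limma), and that of HSPA5, which encodes the chaperone BiP, was 2.14 ± 0.09 (SE). HSPA5-DT had 3 reads over all control libraries, so its value depends on the added 1. On the recovered reads edgeR gave it a log2 fold change of 2.86. Per kb it came to 0.063% of HSPA5 in fasting medium and 0.032% in control medium. The call of HSPA5-DT was lost in 11 of 20 alternatives, among them the filter at a mean of 20, where it was not tested. HSPA5 had 67101, 68057 and 74564 normalized counts in fasting libraries, against 15666, 15584 and 16279 in control libraries.

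The promoters shared by these divergent pairs are shown from 250 bases before to 50 bases after the start of the protein-coding gene, read along its strand (RefSeq, GRCh38.p14). In that annotation the divergent gene starts 214 bases upstream of DNAJC3 and 178 bases upstream of ZFAND2A, and capitals mark the bases between both starts. The windows lie at chr13:95676889-95677188 on the plus strand and chr7:1160147-1160446 on the minus strand.
DNAJC3: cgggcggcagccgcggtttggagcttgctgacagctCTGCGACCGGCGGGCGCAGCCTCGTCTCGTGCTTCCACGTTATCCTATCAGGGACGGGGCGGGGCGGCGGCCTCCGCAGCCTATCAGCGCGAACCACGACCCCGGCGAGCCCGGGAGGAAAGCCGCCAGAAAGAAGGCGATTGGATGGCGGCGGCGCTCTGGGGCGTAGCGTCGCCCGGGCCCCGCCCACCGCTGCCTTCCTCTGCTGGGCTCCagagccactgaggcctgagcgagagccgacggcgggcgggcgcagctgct
ZFAND2A: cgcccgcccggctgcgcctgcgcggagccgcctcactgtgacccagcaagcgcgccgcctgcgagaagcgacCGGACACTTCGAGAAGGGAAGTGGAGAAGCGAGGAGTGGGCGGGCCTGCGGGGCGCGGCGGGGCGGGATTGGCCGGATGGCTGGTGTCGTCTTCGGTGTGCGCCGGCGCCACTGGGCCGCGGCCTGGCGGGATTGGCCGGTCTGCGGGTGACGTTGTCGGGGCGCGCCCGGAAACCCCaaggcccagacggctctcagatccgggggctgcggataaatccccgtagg

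HSPA5-DT starts 313 bases upstream of HSPA5, outside the window at chr9:125241294-125241593 on the minus strand. Here capitals mark matches to an AP-1 element (TGANTCA) and an ER stress element (CCAAT and CCACG with 9 bases between), each searched on both strands.
HSPA5: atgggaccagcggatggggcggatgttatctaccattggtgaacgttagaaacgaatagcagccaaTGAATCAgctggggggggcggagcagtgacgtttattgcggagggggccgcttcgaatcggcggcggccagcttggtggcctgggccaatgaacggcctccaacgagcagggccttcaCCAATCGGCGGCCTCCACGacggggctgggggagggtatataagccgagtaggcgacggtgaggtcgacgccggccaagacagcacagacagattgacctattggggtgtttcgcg

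Of 27305 genes with RefSeq promoter windows of this length, 0.0916% had a window that matched the ER stress element and 9.37% one that matched the AP-1 element. RefSeq windows were found for 82 members and 21 sense genes. Among the 82 member windows the ER stress element was matched in 0 and the AP-1 element in 5, those of HSPA5-DT, LINC00963, LINC02709, LURAP1L-AS1 and UBQLN1-AS1. A heat shock element (GAA, TTC and GAA, or TTC, GAA and TTC, with 2 bases between) was matched in 0.608% of all genes. It was matched in 1 of the 82 members, B3GAT1-DT. An ATF4 element (TGATGCAA, in 1.08% of all genes) was matched in 2 members, LURAP1L-AS1 and NUP153-AS1. A cAMP response element (TGACGTCA, 2.25%) was matched in 2, CD2BP2-DT and UBQLN1-AS1. A match is a run of letters and does not show that a factor binds there. No match to these elements was found in the DNAJC3 and ZFAND2A windows, which says only that these letters are not in them.

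Genes that process or degrade noncoding RNA were read beside the 11.8% of tested genes that are listed and the 44.6% of listed genes that fell. Of 16 microRNA processing genes 4 were listed (25%) and 3 fell. DROSHA, which cuts hairpins from host transcripts, fell by 0.82 on the log2 scale (adjusted p = 0.0116), its partner DGCR8 by 0.75 (adjusted p = 2.30e-03) and the effector AGO1 by 0.96 (adjusted p = 0.0315). DICER1 did not pass (-0.78, adjusted p = 0.132). The summed level of the 4 genes was 1763 to 2965 normalized counts in fasting libraries and 4383 to 4497 in control libraries. Calls fell to 1 gene with RLE scaling and on leaving out control replicate 1 or 3.

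Of 23 genes of nuclear RNA turnover 5 were listed (21.7%). RBM7 (0.69) and ZCCHC8 (0.83), subunits of the NEXT complex that directs nuclear RNAs to the exosome, rose. The exosome subunits EXOSC6 (-0.63) and EXOSC9 (-0.70) and the adaptor ZC3H18 (-0.82) fell. Among 22 genes of the Integrator complex and of transcript termination 6 were listed (27.3%). INTS6 rose (0.63), while INTS1 (-0.68), INTS8 (-0.88), CPSF1 (-0.58), WDR82 (-0.72) and a gene listed as AC008755.1 (-0.61) fell. The single listed gene of 18 paraspeckle and speckle proteins was SMARCA4, a chromatin remodeller, which fell (-0.66). Other named long noncoding RNAs outside the naming rule were listed for 5 of 34 and all rose. They were GAS5 (1.39), PVT1 (0.89), ZFAS1 (0.84), CASC19 (0.63) and CYTOR (0.59), with a median log2 fold change of 0.84. Of all listed genes 49.7% rose.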

How the data were processed

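RNA of 6 RKO libraries was analysed from a single deposited table. The submitters' processing notes name DESeq 1.10.1, HTSeq 0.6.1 and UMI-tools 1.0.0 without a role. Aligner, genome build, annotation and strand setting: not given in the sources used here. By their values the deposited columns are a signal, read counts that the authors divided by a size factor per library (0.788, 0.956 and 0.727 for fasting, 1.01, 1.41 and 1.38 for control replicates). Whole reads were recovered for 100% of values within 0.01 read. The authors' log2 fold change, their p-value and its adjusted form, also deposited, were used only to count the genes tested, and it lists only genes with an adjusted p up to 0.049987 in the authors' deposited table.

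limma 3.58.1 in R 4.3.3 was run on log2(normalized count + 1) with a trend, for genes whose mean reached 1 in either group. Benjamini-Hochberg adjustment of the limma test covered 29845 genes, with unlisted genes taken as not significant, and the two-sided threshold was 0.05. The variance moderation was estimated on the listed genes, which had been selected for their difference. Fold values are from means of log2 values and understate the change of low genes. The limma fit was the planned test, since the values are counts divided by size factors. On the recovered reads edgeR 4.0.16 called 3359 and DESeq2 1.42.0 called 3483 of the listed genes. Alternatives were other pseudocounts, filters, scalings, tests, a replicate block and leaving out each library. The fits were tested on simulated data.

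Names came from a table of gene names (3467 of 3511 identifiers), which also replaced 7 names turned into dates. Lengths and overlaps are from GENCODE v29 (GRCh38), and sequences from RefSeq. Members and gene lists were chosen with earlier results of these data known. Named members are the 12 largest rises and falls with a mean of at least 20 in the higher group, the host genes, MALAT1 and NEAT1, the 6 highest levels, and by pair the 8 largest differences and the 8 largest shared changes. Other genes named were chosen after their values were seen. Floors cover counting error only, while SD and SE come from the spread among libraries.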

Additional observations from a re-analysis of the deposited data

How the results depend on the processing

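Of 1060 values for the 53 genes named by rule under 20 alternatives, 986 kept direction and call, 72 lost the call, 2 gained it and 0 reversed. Only another scaling could have reversed a direction, since the groups overlapped in no listed gene. Of the 106 called members 30 were not called once some library was left out, 40 under total-read scaling, 7 under RLE scaling and 50 without moderation of the variance, and 106 kept it without fasting replicate 3. Without moderation 56 members passed, 49 higher and 7 lower, with 38 at least 2-fold higher and 5 at least 2-fold lower (43 in all), 8 pairs past in the same direction, and 0 genes of the speckle, 1 of the microRNA processing, 3 of the nuclear turnover, 2 of the Integrator and 2 of the other noncoding RNA list. With total-read scaling 67 members passed, 47 of them higher, with 56 changed at least 2-fold (36 higher, 20 lower), 10 pairs past, 3 turnover genes and 2 other noncoding RNAs. With RLE scaling 12 members were lower, 6 of them at least 2-fold, with 0 speckle, 1 microRNA processing and 3 Integrator genes. Leaving out a library gave 81 to 110 members past, 71 to 87 higher and 9 to 23 lower, 65 to 81 changed at least 2-fold, 59 to 69 upward and 6 to 12 downward, and 12 to 20 pairs past. By list it gave 0 to 1 speckle, 1 to 4 microRNA processing, 3 to 5 turnover, 4 to 6 Integrator, 4 to 5 other noncoding and 8 to 9 stress genes. The lowest counts of fallers were without control replicate 1 (11), 2 (10) or 3 (9). Calls among all 3511 listed genes moved as well, from 3312 in the main fit to 1981 without moderation of the variance. They numbered 2570 under total-read scaling and 2935 under RLE scaling. Leaving out control replicate 1, 2 or 3 gave 2664, 2644 or 2624 called genes. Leaving out fasting replicate 1 or 2 gave 3075 or 2976, and leaving out fasting replicate 3 gave 3509. Members thus lost calls alongside listed genes in general. The cause of these shifts was not tested. Without fasting replicate 3 the count of members past rose to 110. Replicate numbers did not pair the libraries, with correlations of deviations of -0.001, 0.033 and 0.057 over 3238 genes for numbers 1 to 3, and only fasting replicate 3 matched its own number best. With the replicate block 81 members were higher and 20 lower. Depth limits the members under 20 normalized counts most, where a single read is worth 0.710 to 1.38 normalized counts.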
